A study of Mus musculus with 16 samples.

Results

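Wild-type CD8 T cells were compared at 72 h and at 48 h of a stimulated culture. The samples were chosen by the genotype and time in their labels: 4 libraries of each time, 8 of the 16 libraries in the series, whose other 8 came from Batf3-/- mice. Cells from the spleen of C57BL/6 mice, enriched for CD8 T cells, were grown with interleukin 15 (50 ng/ml), a cytokine that keeps CD8 cells alive and dividing. Plate-bound antibody to CD3e and antibody to CD28, each at 1 µg/ml, stood in for antigen and costimulation. Both wild-type groups shared strain, tissue, agents and an intact Batf3 gene, and differed only in time, 48 h or 72 h. An unstimulated or earlier culture was not analysed here. Libraries of one group are named technical replicates by the submitters, and every p-value below measures the spread between libraries, which may be technical, and not between mice. Whether both times were taken from one culture is not given in the sources used here.

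A resting CD8 T cell that is stimulated through its receptor first grows: it induces MYC, builds ribosomes, takes up amino acids and glucose, and makes nucleotides for its coming divisions. Cytokines such as interferon gamma and lymphotoxin are made early and depend on continued receptor signals, while the granule proteins used for killing accumulate as the cell becomes an effector. As growth slows, inhibitors of cyclin-dependent kinases and genes linked to quiescence return, and receptors for survival cytokines and for migration are expressed again.

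The 8 libraries held between 29375818 and 39241169 counts each, at which 3 counts correspond to between 0.0765 and 0.102 CPM, the usual unit of a count relative to the total of its library. Levels are given as CPM scaled by edgeR's TMM factors. A log2 change is the value at 72 h minus that at 48 h, and a gene was called where edgeR's quasi-likelihood test gave an adjusted p below 0.05. The first principal component of the 8 libraries held 90.4% of their variance and separated the times, and the second held 4.06%. Replicate 4 of the 72 h group stood apart from its 3 companions. Its median absolute log2 difference from the median of those 3 was 0.149. The others, each set against its own 3 companions, had 0.0832 to 0.102. Where leaving it out moved a printed count of a gene list by over 1.5 times, the count without it is given. No pair of libraries of one group agreed within sampling noise, so all were counted. Because CPM are shares of a library, each change is relative to the other RNAs, and fewer cells of a type cannot be told apart from less of an RNA per cell.

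The labelled cell type was checked against its markers. Summed over 7 CD8 T cell markers, the level was between 1382 and 1427 CPM at 48 h and between 2046 and 2144 CPM at 72 h. Cd8a, a chain of the co-receptor, stood at 282, 293, 290.0 and 281 CPM at 48 h and 329.7, 330.2, 340.5 and 329.7 CPM at 72 h (log2 change 0.21), and Cd8b1, the other chain, at 325 ± 14.6 CPM at 48 h and 333 ± 6.80 CPM at 72 h (SD, n = 4), which was not a called difference. Cd3e, Cd3d and Cd3g, the signalling chains around the receptor, had log2 changes of 0.78, 0.89 and 1.05, all called. Markers of other cells were summed in the same way. Of 20 macrophage, monocyte and granulocyte markers, 9 had no count in any wild-type library, among them Csf1r, Adgre1 and Ly6g, and their sum was between 10.1 and 11.9 CPM at 48 h and between 25.7 and 33.8 CPM at 72 h. The chemokine receptor Ccr2, which T cells also make, held 8.05 ± 1.09 and 23.03 ± 4.04 CPM of these sums, and 3 of the 4 members tested were called higher at 72 h, where 33.6% of all genes tested were called higher and 29.9% lower. The 12 B cell markers summed to 253 to 260 CPM at 48 h and 227 to 289 CPM at 72 h and were led by Ighm (243 ± 4.29 and 246 ± 25.6 CPM). Of the 6 tested, Ebf1 (1.66) and Cd79b (0.60) were higher and Cd74 (-0.39) was lower, a call lost without replicate 4 of the 48 h group or replicate 3 or 4 of the 72 h group (edgeR adjusted p = 0.0758, 0.0815 and 0.105) and with library size alone or exon length offsets. Cd79a, Ms4a1 and Pax5 were too low to be tested. The 6 markers of CD4 and regulatory T cells summed to 278 to 334 CPM at 48 h and 428 to 482 CPM at 72 h, led by Tnfrsf4, a costimulatory receptor of activated T cells (281 ± 23.2 and 364 ± 17.1 CPM). Of the 5 tested, 4 were higher, 3 of them by at least 2-fold, and Cd40lg was lower (median 1.30). Those 3 were the transcription factors Zbtb7b (20.04 ± 1.58 and 49.4 ± 2.13 CPM) and Ikzf2 (10.8 ± 0.998 and 42.8 ± 5.42 CPM) and Cd4 itself (0.104 ± 0.0818 and 0.745 ± 0.108 CPM), while Foxp3 was too low to be tested. The 8 dendritic cell markers summed to between 99.96 and 112 CPM at 48 h and between 77.0 and 83.8 CPM at 72 h, led by Bst2, and the 10 stromal and endothelial markers to 12.8 to 15.9 CPM and 31.0 to 34.9 CPM, led by Pecam1. The 5 plasma cell markers and the 10 erythroid and platelet markers summed to 7.33 to 16.7 CPM and 1.98 to 3.66 CPM over all 8 libraries. The 13 markers of NK and gamma delta T cells summed to 77.9 to 86.1 CPM at 48 h and 88.4 to 103.6 CPM at 72 h, led by Eomes (48.7 ± 2.60 and 49.0 ± 3.60 CPM), which CD8 cells express as well. All 13 were tested, and 7 were higher, 4 of them by at least 2-fold, with a median log2 change of 0.80. A called fall was found in 1 (2 without replicate 4 of the 72 h group). The largest rise was that of Cd7, given below. What part these signals had in the changes below was not tested.

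Most of the genes tested changed between the times. Of 15197 genes tested, 9664 (63.6%) were called: 5113 (33.6%) were higher and 4551 (29.9%) lower at 72 h. Changes of at least 2-fold were called in 1788 genes upward (11.8%) and 871 downward (5.73%). The groups of 4 libraries did not overlap in 4553 genes that were higher (30.0%) and 4268 that were lower (28.1%). Without replicate 4 of the 72 h group the calls were 5020 upward and 4554 downward, and those of at least 2-fold 1804 and 911, of which 1654 and 800 were among the calls with it. The median log2 change over all genes tested was 0.05, with quartiles at -0.39 and 0.53; these are the values against which the groups of genes below can be read. With so many calls, the direction of a group and its number of changes of at least 2-fold say more than its number of calls.

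**Figure D1:**
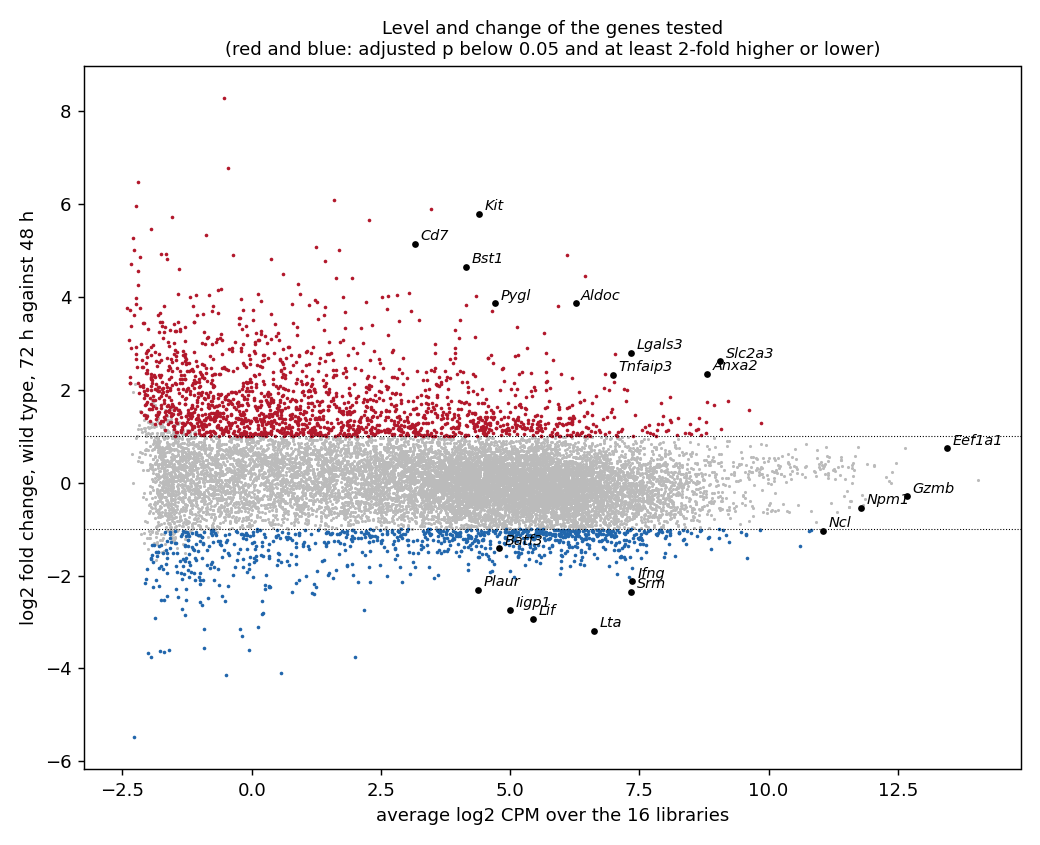
Each point is 1 of the 15197 genes tested, placed by its average log2 CPM over the 16 libraries (x axis) and its log2 fold change in wild-type cells, 72 h against 48 h (y axis); red and blue points were called and at least 2-fold higher (1788) or lower (871), and dotted lines mark 2-fold. Among abundant genes the named rises (Kit, Slc2a3, Anxa2) and falls (Lta, Ifng, Srm) stand well away from the body of points near 0.

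The genes that rose most included several that were close to silent at 48 h. Kit, the receptor for stem cell factor (chromosome 5, 75574916 to 75656722 in GRCm38), stood at 0.663, 1.13, 1.32 and 0.676 CPM at 48 h and 56.5, 50.5, 52.1 and 50.4 CPM at 72 h (log2 change 5.79, SE 0.19, edgeR adjusted p = 1.7e-16). Each 72 h library was thus above 50 CPM while no 48 h library reached 2. Bst1, an ectoenzyme that consumes NAD, stood at 1.27, 1.49, 1.63 and 1.30 CPM at 48 h and 36.3, 38.1, 31.5 and 37.8 CPM at 72 h (log2 change 4.66, SE 0.11, edgeR adjusted p = 1.25e-19). Neither of these genes had overlapping groups. Cd7, a surface protein of T and NK cells, was at or near 0 in the 48 h libraries (0.146 ± 0.116 CPM) and at 5.33 ± 0.728 CPM at 72 h (log2 change 5.15). Genes ranked here had to pass an average level over all 16 libraries, knockout included. A gene low in wild type, such as Cd7, could thus pass through its level in the knockout. C3, the central complement component, rose from 0.590 ± 0.226 to 10.2 ± 1.35 CPM, and Nos2, the inducible nitric oxide synthase, from 1.12 ± 0.557 to 14.9 ± 2.13 CPM. Acvrl1, a receptor of the TGF-beta family, changed by 3.83 to 22.4 ± 2.203 CPM, and Dapk2, a calmodulin-regulated kinase, by 3.51 to 26.9 ± 1.74 CPM. Selenbp1, a selenium-binding protein, reached 90.8 ± 5.28 CPM (log2 change 3.81). Metabolic enzymes made up much of the remainder: Aldoc, an aldolase of glycolysis, at 8.06, 8.91, 9.86 and 8.82 CPM at 48 h and 131, 125, 137 and 128 CPM at 72 h; Pygl, glycogen phosphorylase, at 2.31 ± 0.385 and 33.7 ± 0.999 CPM; and Adssl1, an enzyme of purine nucleotide cycling, at 1.71 ± 0.111 and 28.1 ± 1.53 CPM, with log2 changes of 3.87, 3.86 and 4.03. The last pair among the 15 largest rises, Hspa1a and Hspa1b, varied between libraries and is given with the chaperones below.

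The largest falls were led by cytokines. Lta, lymphotoxin alpha (chromosome 17, 35203165 to 35205351), stood at 228, 169, 198 and 232 CPM at 48 h and 23.7, 20.8, 23.6 and 23.02 CPM at 72 h (log2 change -3.18, SE 0.14, edgeR adjusted p = 8.29e-14). Lif, leukaemia inhibitory factor, stood at 99.4, 95.8, 103 and 99.0 CPM at 48 h and 9.52, 10.2, 15.1 and 17.2 CPM at 72 h (log2 change -2.94, SE 0.18, edgeR adjusted p = 2.14e-10). For both genes the lowest 48 h library was several-fold above the highest 72 h library. Srm, spermidine synthase, which makes the polyamine spermidine, stood at 302, 295, 304 and 299 CPM at 48 h and 57.8, 54.3, 63.9 and 59.4 CPM at 72 h (log2 change -2.35, SE 0.08, edgeR adjusted p = 8.68e-18). Plaur, the urokinase receptor, changed by -2.31, and Nfkbid, a nuclear inhibitor of NF-kappa B, by -1.91. Iigp1, a GTPase induced by interferon gamma, fell from 63.0 ± 8.48 to 9.38 ± 1.21 CPM (log2 change -2.75). Grwd1, Nolc1 and Rbm19, which act in ribosome assembly, changed by -2.03, -2.02 and -1.92. Mat2a, which makes the methyl donor S-adenosylmethionine, fell from 227 ± 13.1 to 58.5 ± 6.68 CPM, and Slc5a6, a vitamin transporter, from 13.97 ± 1.93 to 3.57 ± 0.898 CPM. Myo19, a mitochondrial myosin, Bend3, a chromatin protein, and Nefh, a neurofilament chain, completed the 15 largest falls with log2 changes of -2.05, -1.98 and -1.96.

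**Figure D2:**
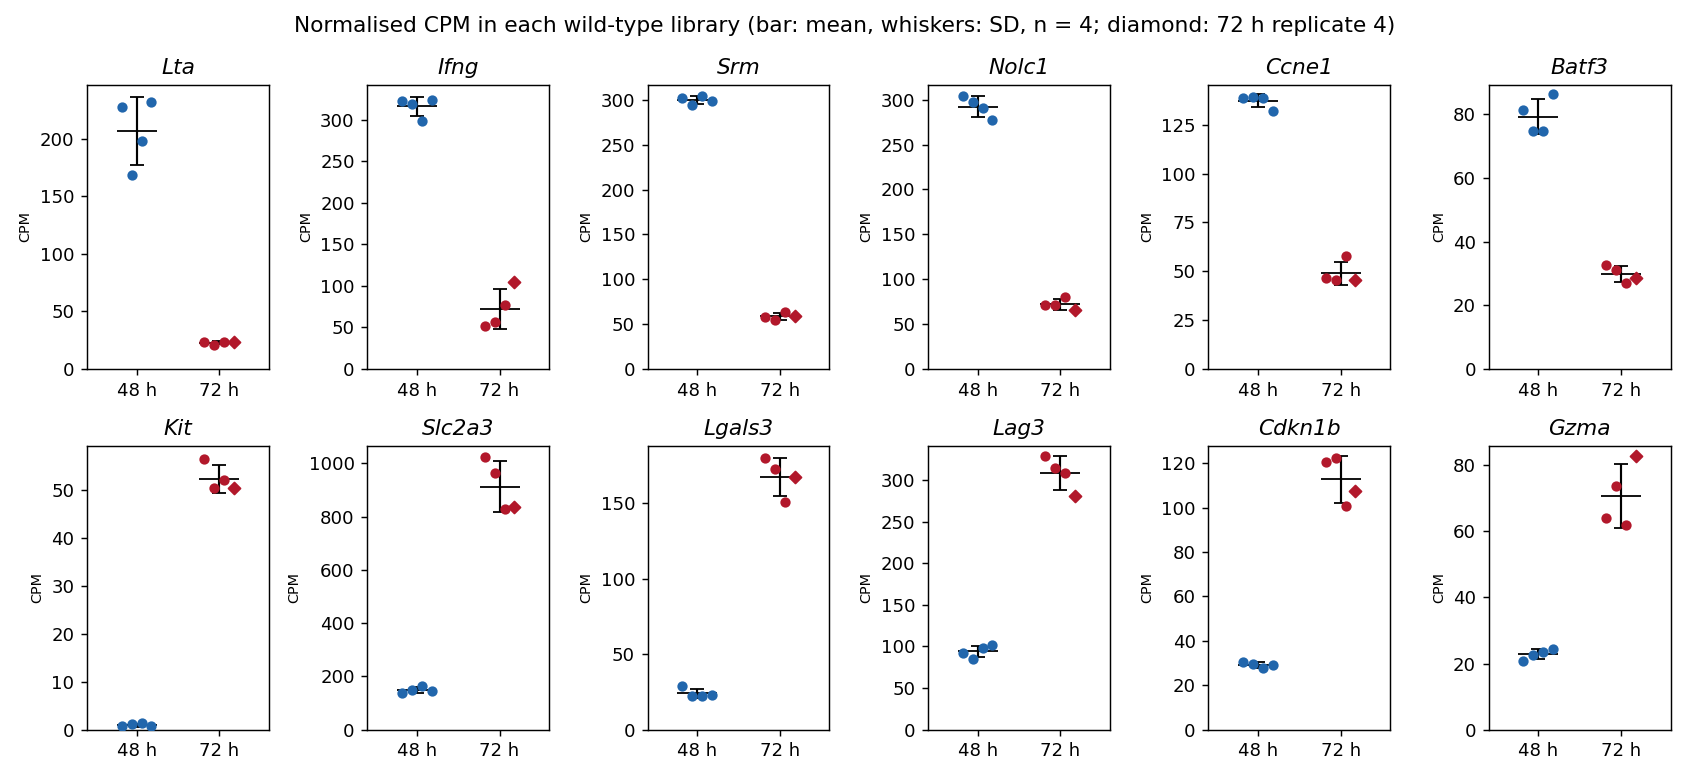
Normalised CPM (y axes, each from 0) of 12 genes in the 4 wild-type libraries of 48 h (blue) and of 72 h (red), with the mean (bar) and SD (whiskers); the diamond is replicate 4 of the 72 h group. In each panel the 2 times do not overlap, as for Lta (169 to 232 CPM at 48 h, 20.8 to 23.7 CPM at 72 h).

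Genes for building ribosomes had the lowest median change of any list with at least 10 tested genes. All but 1 of the 26 ribosome biogenesis genes were lower at 72 h, 19 of them by at least 2-fold, and the list's median log2 change was -1.23, against 0.05 for all genes and a background of 29.9% called lower. The count was the same without replicate 4 of the 72 h group. Nolc1, a nucleolar chaperone, stood at 304, 297, 291 and 277 CPM at 48 h and 71.4, 71.4, 80.0 and 65.3 CPM at 72 h (log2 change -2.02, SE 0.13, edgeR adjusted p = 2.99e-11). Utp20, needed to process the small-subunit RNA, stood at 122, 119, 106 and 106 CPM at 48 h and 32.0, 33.5, 32.5 and 28.5 CPM at 72 h (log2 change -1.84, SE 0.11, edgeR adjusted p = 1.01e-12). Mybbp1a, a nucleolar MYB-binding protein, stood at 426, 407, 422 and 400.5 CPM at 48 h and 140.1, 132, 142 and 132 CPM at 72 h (log2 change -1.60, SE 0.10, edgeR adjusted p = 3.27e-12). In each of the 3 the groups were far apart. The core proteins of the box C/D particles that guide RNA methylation, Nop56, Nop58 and Fbl, had log2 changes of -1.59, -1.06 and -0.91, and Dkc1 and Nhp2 of the pseudouridylation particles -1.44 and -1.27. RNA polymerase I and its factors followed: Polr1a and Polr1b, the largest subunits, at -1.19 and -1.65, Rrn3 at -1.13 and Ubtf at -1.33. Ncl and Npm1, abundant nucleolar proteins, still stood at 1481 ± 72.8 and 2716 ± 300.3 CPM at 72 h after log2 changes of -1.03 and -0.54. The exception was Polr1c, a subunit shared with polymerase III, at 118 ± 6.62 and 111 ± 6.58 CPM.

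MYC, a factor long known to drive this class of genes, binds the E-box, with the letters CACGTG on both strands. Of 30 RefSeq promoter windows (GRCm38.p6, 250 bases before to 50 after the start) matched to 22 of the 26 genes, 6 (20%) held an E-box, against 9.87% of the 12923 windows of all genes tested and 7.15% of all 32851 windows in the table. Over all genes called, 16.4% of the windows of genes at least 2-fold lower held one and 6.46% of those at least 2-fold higher. The 3 members with the largest falls among those whose window holds the motif are shown, 5′ to 3′ on the gene's strand, with the E-box in capitals, because they carry that comparison. In Utp20 the E-box begins 37 bases after the start and in Mybbp1a 40 bases after it, while in Nop2, a ribosomal RNA methyltransferase (log2 change -1.53), it begins 60 bases before it.
Utp20 (chr10:88826765-88827064, minus strand): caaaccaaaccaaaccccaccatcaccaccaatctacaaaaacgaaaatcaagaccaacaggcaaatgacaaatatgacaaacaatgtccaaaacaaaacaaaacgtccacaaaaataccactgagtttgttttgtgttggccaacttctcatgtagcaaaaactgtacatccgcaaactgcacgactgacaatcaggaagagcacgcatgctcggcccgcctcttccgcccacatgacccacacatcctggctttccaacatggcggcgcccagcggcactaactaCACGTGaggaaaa
Mybbp1a (chr11:72441077-72441376, plus strand): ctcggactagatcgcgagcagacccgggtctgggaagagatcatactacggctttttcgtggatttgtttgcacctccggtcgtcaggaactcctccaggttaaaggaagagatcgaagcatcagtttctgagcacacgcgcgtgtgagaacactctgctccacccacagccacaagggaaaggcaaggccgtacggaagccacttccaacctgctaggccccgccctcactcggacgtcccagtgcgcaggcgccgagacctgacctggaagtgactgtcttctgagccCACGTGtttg
Nop2 (chr6:125131633-125131932, plus strand): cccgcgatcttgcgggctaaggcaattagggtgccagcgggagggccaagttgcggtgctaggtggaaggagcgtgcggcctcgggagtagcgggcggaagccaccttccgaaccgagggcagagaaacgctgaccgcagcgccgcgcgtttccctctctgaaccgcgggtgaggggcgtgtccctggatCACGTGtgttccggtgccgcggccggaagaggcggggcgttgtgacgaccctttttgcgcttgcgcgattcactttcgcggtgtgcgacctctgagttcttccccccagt

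Within the MYC network, Myc fell and its antagonists rose. Myc stood at 332, 315, 327 and 321 CPM at 48 h and 211, 207, 212 and 188 CPM at 72 h (log2 change -0.66, SE 0.08, edgeR adjusted p = 3.31e-08). Mxd1, Mxd4 and Mxi1, which compete with MYC for their shared partner MAX, had called log2 changes of 1.63, 2.34 and 1.75. Mxd4 stood at 11.1, 9.50, 9.99 and 12.6 CPM at 48 h and 57.4, 57.2, 51.7 and 51.9 CPM at 72 h, so that the 72 h libraries were all higher. Besides Srm, the polyamine enzymes Odc1, the rate-limiting ornithine decarboxylase (1013 ± 39.9 and 482 ± 44.0 CPM), and Amd1 (166 ± 7.69 and 77.2 ± 3.79 CPM) fell, by 1.07 and 1.10 on the log2 scale. Of the list of 14 genes of the MYC network and polyamine synthesis, 6 were higher and 7 lower. The shares over all genes tested were 33.6% called higher and 29.9% lower.

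Ribosomal proteins moved against the factors that assemble them. Of 79 cytosolic ribosomal protein genes, 63 were called higher and 1 lower, with a median log2 change of 0.32. Rps15a had the largest of these changes, 0.72, and Rpl17 was next with 0.71. Many of these genes have processed copies elsewhere in the genome, so that their exact counts are uncertain. The called fall was that of Rps10 (4.54 ± 0.573 and 3.49 ± 0.445 CPM), which lost its call without replicate 1 or 4 of the 48 h group or replicate 1 or 2 of the 72 h group (edgeR adjusted p between 0.0527 and 0.0924). Summed, the list took 11.5% ± 0.498 of all counts at 48 h and 14.6% ± 0.584 at 72 h (SD, n = 4), while the ribosome biogenesis list took 1.24% ± 0.0364 and 0.661% ± 0.0235.

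Translation factors mostly fell, while 3 of the elongation factors rose. Of 17 translation factors, 3 were higher and 10 lower, 4 of them by at least 2-fold. Eif4g1, the scaffold of the cap-binding complex, stood at 794, 765, 769.8 and 749 CPM at 48 h and 291, 277, 301 and 271 CPM at 72 h (log2 change -1.43, SE 0.07, edgeR adjusted p = 8.52e-15). Eif6, which binds the new large subunit, Eif5a, whose activity depends on a polyamine-derived residue, and Eif3b, a subunit of a large initiation complex, changed by -1.06, -1.05 and -1.02. The members that rose were Eef1b2 (0.22) and the main elongation factors Eef1a1 and Eef2, which changed by 0.74 and 0.75. Per length, Eef1a1 went from 3123 ± 149.5 to 5222 ± 117 RPKM (CPM divided by the exon length in kilobases, mean ± SD, n = 4), which placed it among the 10 genes of highest RPKM at 72 h but not at 48 h.

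**Figure D3:**
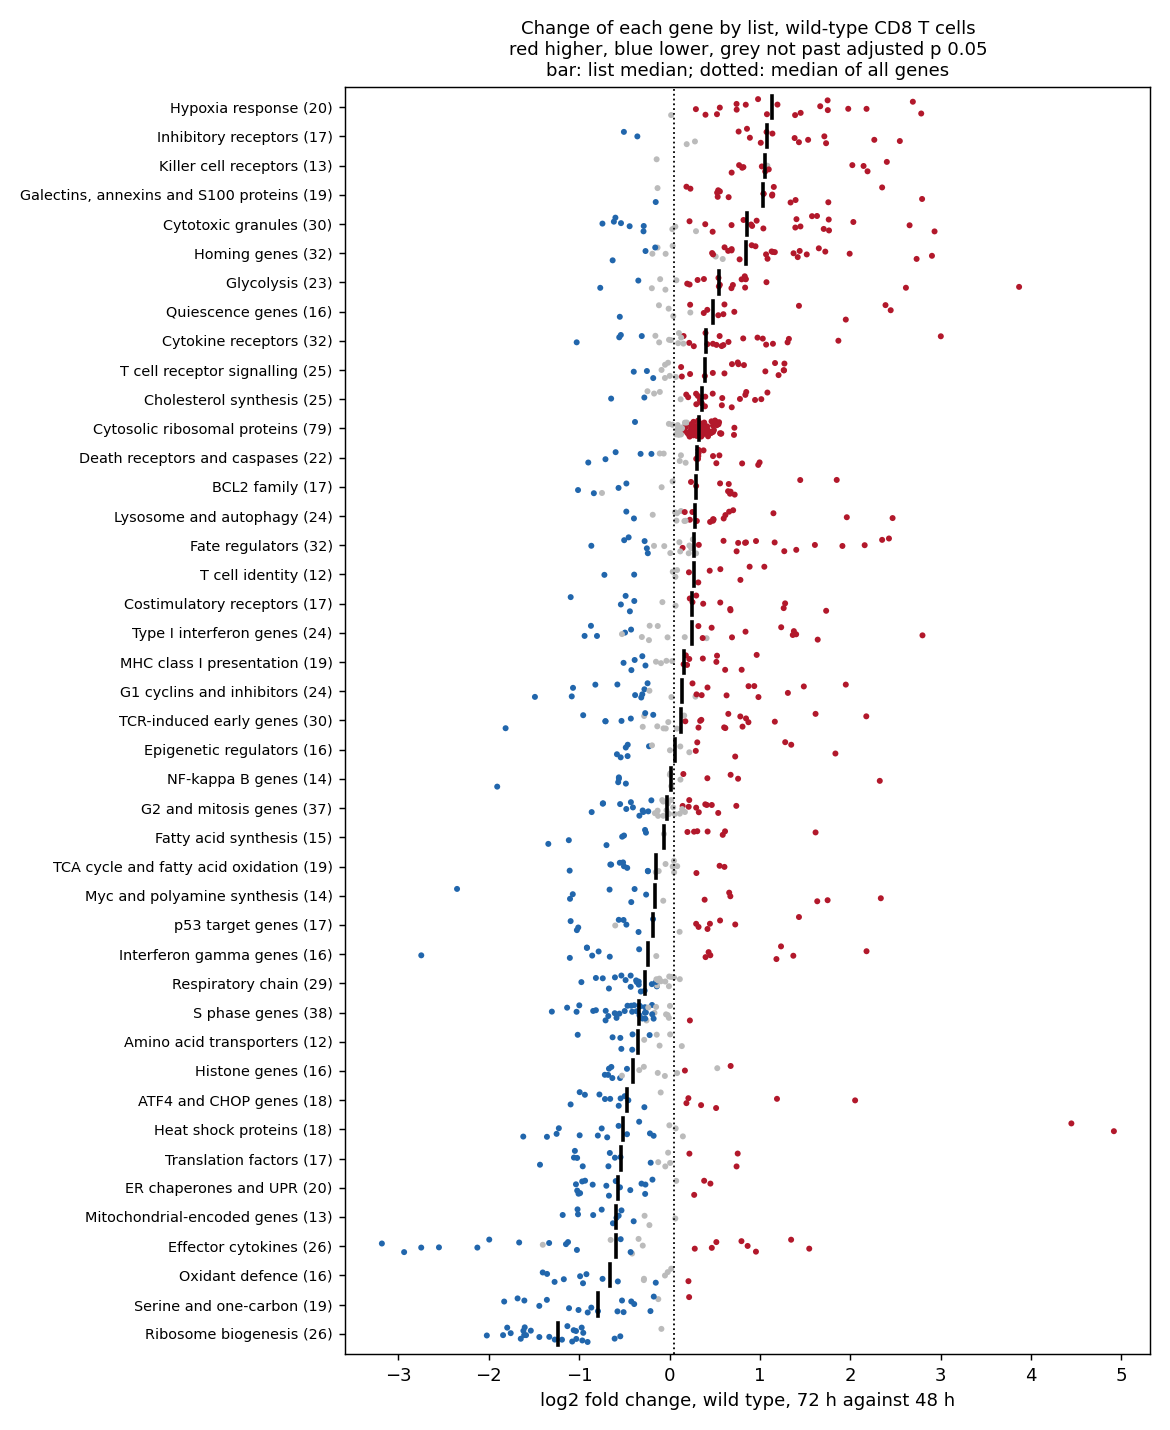
Log2 fold change in wild-type cells, 72 h against 48 h (x axis), of every tested gene of the lists with at least 12 tested members (rows, number tested in brackets), with called rises in red, called falls in blue and other genes in grey; the black bar is the list's median and the dotted line the median of all genes (0.05). Ribosome biogenesis lies lowest (-1.23), followed by serine and one-carbon genes (-0.79), and the hypoxia response highest (1.14).

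Enzymes that supply nucleotides and one-carbon units fell as well. Of 19 genes of serine, one-carbon and nucleotide synthesis, 17 were lower, 7 of them by at least 2-fold, and 1 was higher (median log2 change -0.79). Gart, an enzyme of purine synthesis, stood at 287, 281, 285 and 278 CPM at 48 h and 79.4, 78.8, 83.7 and 76.4 CPM at 72 h (log2 change -1.83, SE 0.08, edgeR adjusted p = 5.79e-16). Shmt1, the cytosolic serine hydroxymethyltransferase, stood at 133, 129, 128 and 128 CPM at 48 h and 40.8, 39.0, 43.7 and 37.9 CPM at 72 h (log2 change -1.68, SE 0.08, edgeR adjusted p = 1.11e-14). Cad and Dhodh of pyrimidine synthesis changed by -1.61 and -1.36. The groups of these 4 genes did not overlap. Of the one-carbon enzymes of mitochondria, Shmt2 changed by -0.79, Mthfd2 by -0.39, and Mthfd1l, the 1 member that rose, by 0.22. Of 12 amino acid transporters, 7 were lower, and Slc7a5, the leucine transporter, went from 538 ± 19.4 to 266 ± 22.5 CPM (log2 change -1.02). Its partner chain Slc3a2 stood at 282 ± 11.1 and 261 ± 19.1 CPM, a difference that was not called. Of 18 ATF4 and CHOP genes, 11 were lower and 6 higher, where 29.9% of all genes tested were called lower and 33.6% higher. Atf4 itself, the regulator of the amino acid response, changed by -0.50 and the aminoacyl-tRNA synthetase Wars by -0.99, while Ddit3, which encodes CHOP, rose from 21.8 ± 2.67 to 49.7 ± 6.66 CPM.

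Most genes of protein folding and oxidant defence fell. Of 20 endoplasmic reticulum chaperones and stress genes, 16 were lower and 3 higher (median -0.57). Hspa5, the main chaperone of that compartment, stood at 745, 754, 712 and 737 CPM at 48 h and 347, 367, 349.7 and 388 CPM at 72 h (log2 change -1.02, SE 0.06, edgeR adjusted p = 2.14e-13). Of 16 oxidant defence genes, 10 were lower, 4 of them by at least 2-fold, and 1 was higher: Cat, catalase (0.21), whose call was lost without replicate 1 or 4 of the 48 h group (edgeR adjusted p = 0.0766 and 0.0597). Txnrd1, thioredoxin reductase, and Gpx1, glutathione peroxidase, changed by -1.40 and -1.35, and G6pdx, which feeds the pentose phosphate pathway, by -1.27. Of 18 heat shock proteins, 13 were lower and 2 higher. Hspd1, the mitochondrial chaperonin, went from 1283 ± 83.1 to 418 ± 12.3 CPM and Hsp90aa1 from 2288 ± 141 to 894 ± 118 CPM (log2 changes -1.62 and -1.36).

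The called rises among heat shock genes were the inducible HSP70 pair. Hspa1a stood at 2.46, 2.38, 1.63 and 2.05 CPM at 48 h and 106, 101, 25.8 and 24.5 CPM at 72 h (log2 change 4.92, SE 0.54, edgeR adjusted p = 2.94e-06), and Hspa1b at 4.72, 3.99, 2.95 and 3.53 CPM at 48 h and 133, 129, 35.5 and 32.6 CPM at 72 h (log2 change 4.45, SE 0.49, edgeR adjusted p = 3.43e-06). All 72 h libraries were above all 48 h libraries, but replicates 1 and 2 of the later group were far above replicates 3 and 4. The genes are near-identical neighbours on chromosome 17, so that reads may be divided between them. Dnajb1 and Bag3, usually induced with them, had log2 changes of 0.07 and 0.15 that were not called.

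Most glycolysis and hypoxia genes rose and most mitochondrial genes fell. Of 20 hypoxia response genes, 19 were higher, 11 of them by at least 2-fold, with a median log2 change of 1.14 and a background of 33.6% called higher and 11.8% called at least 2-fold higher. The count was 19 without replicate 4 of the 72 h group as well. Hif1a, the oxygen-regulated factor and controlled mainly as a protein, was not called, at 372 ± 14.8 and 377 ± 31.5 CPM. Ndrg1, a stress-responsive gene and classical HIF target, stood at 24.9, 28.3, 27.2 and 24.6 CPM at 48 h and 207, 198, 159.8 and 159.7 CPM at 72 h (log2 change 2.78, SE 0.09, edgeR adjusted p = 3.43e-18). P4ha2, a collagen prolyl hydroxylase, stood at 5.17, 5.48, 6.42 and 6.79 CPM at 48 h and 43.0, 40.9, 36.2 and 34.5 CPM at 72 h (log2 change 2.69, SE 0.10, edgeR adjusted p = 1.22e-16). Ankrd37 stood at 12.8, 12.8, 13.2 and 14.3 CPM at 48 h and 55.2, 61.6, 42.3 and 50.2 CPM at 72 h (log2 change 1.98, SE 0.10, edgeR adjusted p = 1.52e-14). In all 3 the lowest 72 h library was far above the highest 48 h library. Epas1, which encodes HIF2 alpha, changed by 2.18, Ddit4, an inhibitor of mTORC1, by 1.67, and Bnip3 and Bnip3l, receptors for mitochondrial autophagy, by 1.45 and 1.39.

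HIF factors recognise a core with the letters ACGTG. On either strand, 15 of 24 windows (62.5%) of 16 hypoxia genes with a RefSeq promoter held it, against 25.6% of the windows of all genes tested and 19.6% of all windows in the table, and 17 of 35 windows (48.6%) of the glycolysis list. The core lies within the E-box, so a window with an E-box counts here too. The hypoxia list was drawn up from HIF factors and targets, so a high share of the core is built into it. That list share does not depend on the changes between the times. Over all genes at least 2-fold higher the share was 21.8%, and over those at least 2-fold lower 31.5%. The windows of the 3 members with the largest rises among those that hold the core are shown with the core in capitals, to set the motif beside the change; this set was added to the planned one after the changes were known. P4ha2 has it 78 bases before and 10 bases after the start, Ankrd37 241 and 6 bases before it, and Mxi1 66 bases before it.
P4ha2 (chr11:54100674-54100973, plus strand): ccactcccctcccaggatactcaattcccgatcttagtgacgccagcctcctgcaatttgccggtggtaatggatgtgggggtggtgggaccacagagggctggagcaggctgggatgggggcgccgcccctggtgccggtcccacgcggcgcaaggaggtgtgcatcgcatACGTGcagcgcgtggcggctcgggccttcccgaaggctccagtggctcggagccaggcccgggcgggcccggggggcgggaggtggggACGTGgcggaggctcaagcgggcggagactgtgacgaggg
Ankrd37 (chr8:45999801-46000100, minus strand): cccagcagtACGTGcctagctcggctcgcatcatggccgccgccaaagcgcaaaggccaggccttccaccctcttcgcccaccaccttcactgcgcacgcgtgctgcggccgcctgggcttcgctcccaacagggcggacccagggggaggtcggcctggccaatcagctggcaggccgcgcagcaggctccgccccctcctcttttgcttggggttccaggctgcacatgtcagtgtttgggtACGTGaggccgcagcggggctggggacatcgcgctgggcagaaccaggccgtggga
Mxi1 (chr19:53329163-53329462, plus strand): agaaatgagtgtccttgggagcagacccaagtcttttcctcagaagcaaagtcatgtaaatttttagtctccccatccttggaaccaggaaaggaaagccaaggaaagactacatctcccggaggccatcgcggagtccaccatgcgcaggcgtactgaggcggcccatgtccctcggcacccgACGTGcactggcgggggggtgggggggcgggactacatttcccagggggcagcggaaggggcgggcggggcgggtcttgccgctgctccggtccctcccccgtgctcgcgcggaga

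Other motifs were searched the same way, on both strands. The E2F forms TTCCCGC and TTGGCGC stood in 36.8% and 21.1% of 38 windows of S phase genes, against 8.2% and 4.13% of the windows of all genes tested. The CHR motif TTTGAA and the CCAAT box stood in 71.9% and 81.2% of 32 windows of G2 and mitosis genes, against 12.3% and 37.9%. The AP-1 motif TGANTCA stood in 8.57% of the windows of genes at least 2-fold higher, 5.52% of those at least 2-fold lower and 5.09% of all genes tested. The sterol core TCACNCC stood in 4 of 20 windows of cholesterol genes, against 16.6%, and the GAS motif TTCNNNGAA in 53.8% of 13 windows of interferon gamma genes, against 6.81%. Lists were drawn up by known function, so their shares do not depend on the changes between the times. A match of letters is a description of the window and not a measured binding site.

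**Figure D4:**
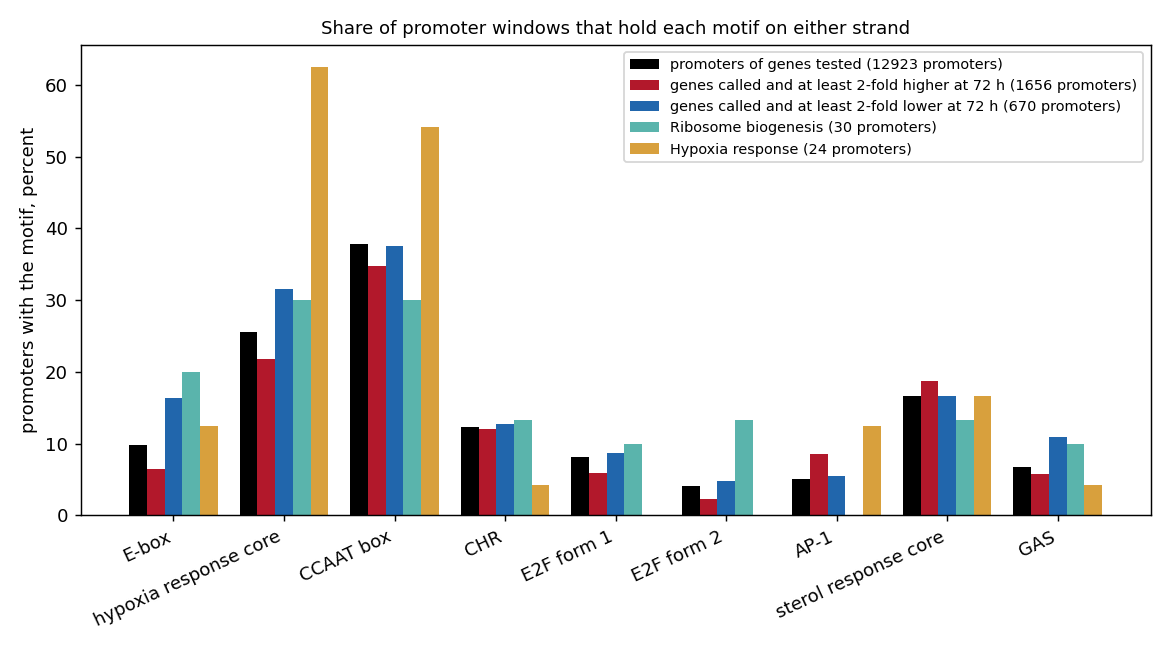
Percent of RefSeq promoter windows (y axis) that hold each of 9 named motifs (x axis) on either strand, for all genes tested (black, 12923 windows), genes at least 2-fold higher (red, 1656) or lower (blue, 670) at 72 h, ribosome biogenesis genes (green, 30) and hypoxia response genes (orange, 24). The E-box stood at 20% in ribosome biogenesis windows against 9.87% in all, and the hypoxia core at 62.5% in hypoxia windows against 25.6%. Genes at least 2-fold higher held the hypoxia core in 21.8% of windows. The hypoxia list was drawn up from HIF factors and targets, and bars for the short lists rest on few windows.

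Of 23 glycolysis genes, 17 were higher and 2 lower (median 0.55). Slc2a3, a high-affinity glucose transporter, stood at 138, 147, 163 and 147 CPM at 48 h and 1022, 962, 827 and 836 CPM at 72 h (log2 change 2.62, SE 0.07, edgeR adjusted p = 4.85e-19), whereas Slc2a1, the other main transporter, rose from 135 ± 8.09 to 196 ± 24.9 CPM (log2 change 0.54). Pfkfb3, which makes the activator of phosphofructokinase, Aldoa, Gpi1 and Pdk1, which restrains entry of pyruvate into mitochondria, changed by 1.07, 0.84, 0.84 and 0.84. Not every step moved this way. Hk2 at 122 ± 4.34 and 106 ± 12.5 CPM was not called, Ldha, lactate dehydrogenase, changed by -0.35, and of the lactate transporters Slc16a1 changed by -0.77 and Slc16a3 by 0.69. Among mitochondrial genes, 18 of 29 nuclear-encoded respiratory chain genes were lower (median -0.27), and 10 of 13 genes of the mitochondrial genome were lower (median -0.59). Of 19 tested genes of the citric acid cycle and fatty acid oxidation, 9 were lower and 3 higher, with Idh3a, a cycle enzyme, at -1.10 and Cpt1a, which brings fatty acids into mitochondria, at 0.61. Cycs, cytochrome c, changed by -0.98 and mt-Nd1, a complex I subunit, by -1.02. By contrast mt-Co1, a complex IV subunit and one of the genes of highest RPKM at both times, stood at 15380 ± 742 and 16070 ± 1918 CPM, which was not called. Without replicate 4 of the 72 h group, 12 of the 13 mitochondrial genes were lower.

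Lipid genes divided. Of 25 cholesterol synthesis genes, 19 were higher and 2 lower (1 without replicate 2 of either time; median 0.36), with Mvd and Fdft1, which act early and midway in the pathway, at log2 changes of 1.08 and 1.02 and Hmgcs1 at 0.95. Abca1, the cholesterol exporter, fell from 4.97 ± 0.492 to 1.203 ± 0.280 CPM. Of 15 fatty acid synthesis genes, 7 were higher and 7 lower, where 33.6% of all genes tested were called higher and 29.9% lower. Fasn, fatty acid synthase, stood at 293, 289.5, 284 and 264 CPM at 48 h and 134, 115, 149 and 124 CPM at 72 h (log2 change -1.11, SE 0.13, edgeR adjusted p = 2.03e-07), and Acsl1, an acyl-CoA synthetase, changed by -1.34, while Elovl5, an elongase, changed by 0.61.

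Proliferation genes changed unevenly along the cycle. Of 38 S phase genes, 29 were lower, 3 of them by at least 2-fold (median -0.33), and the member called higher, the nucleoside kinase Dck (0.23), lost its call without replicate 1 or 4 of the 48 h group. Among 37 genes of G2 and mitosis, 10 rose and 12 fell (median -0.03), within log2 changes of -0.86 and 0.74. Over all genes tested, 33.6% were called higher, 29.9% lower and 5.73% at least 2-fold lower. The G2 and mitosis counts, and the S phase count of changes of at least 2-fold, were near these shares. Ccne1, cyclin E1, which opens S phase, stood at 139, 139, 139 and 132 CPM at 48 h and 46.7, 45.6, 57.7 and 45.5 CPM at 72 h (log2 change -1.49, SE 0.08, edgeR adjusted p = 2.35e-14). Ccne2 and Cdc25a, which act with it, changed by -1.08 and -1.07, and Ccnd2 and Cdk4 of earlier G1 by -0.58 and -0.82. The 9 G1 cyclins and kinases held 7 called falls and 1 called rise, with a highest log2 change of 1.49. That rise was of at least 2-fold, and its call was lost without replicate 4 of the 72 h group. Among S phase genes, Orc1 of the origin recognition complex changed by -1.30, and Tyms and Rrm2, which make thymidylate and deoxynucleotides, by -1.13 and -1.03. The sliding clamp Pcna changed by -0.39. Within the mitotic list, Cdc20 and Plk1, which drive exit from and entry into mitosis, changed by -0.86 and -0.74, and Cenpa, the centromeric histone, by 0.74. Mki67, a general marker of dividing cells, stood at 453, 475, 438 and 420.0 CPM at 48 h and 696, 642, 585 and 545 CPM at 72 h, with no overlap between the times, and Top2a, a topoisomerase of dividing cells, changed by 0.41.

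Most inhibitors of the cycle and quiescence genes rose. Cdkn1b, which encodes the CDK inhibitor p27, stood at 30.4, 29.8, 27.6 and 29.0 CPM at 48 h and 120.3, 122, 100.5 and 108 CPM at 72 h (log2 change 1.95, SE 0.08, edgeR adjusted p = 7.51e-16). Of 15 CDK inhibitors, RB and E2F family genes, 10 were higher and 3 lower, among them the pocket proteins Rb1 (0.98) and Rbl2 (0.94). Of 16 quiescence genes, 11 were higher, 4 by at least 2-fold, and 1 was lower. Pik3ip1, an inhibitor of PI3 kinase, stood at 6.76, 6.05, 8.56 and 6.71 CPM at 48 h and 35.2, 37.5, 42.5 and 38.2 CPM at 72 h (log2 change 2.45, SE 0.10, edgeR adjusted p = 5.89e-16), and Tsc22d3, a glucocorticoid-induced leucine zipper protein, at 13.99, 13.5, 13.5 and 16.2 CPM at 48 h and 81.8, 82.7, 66.0 and 69.6 CPM at 72 h (log2 change 2.39, SE 0.11, edgeR adjusted p = 5.97e-15). Btg2, an antiproliferative factor and p53 target, changed by 1.43. Klf2, a factor of resting T cells, rose from 3.39 ± 0.882 to 10.3 ± 1.34 CPM. Selection for poly-A RNA misses most replication histones, and of 16 tested histone genes of 17 listed, 7 were lower and 2 higher (1 without replicate 2 of the 48 h group or replicate 1, 2 or 4 of the 72 h group). Of 17 p53 target genes, 8 were lower and 7 higher. Sesn2, a stress-induced sestrin, changed by -1.09, Cdkn1a, which encodes p21, by 0.42 and Aen, a nuclease of apoptosis, by -1.03. Among all genes tested, 33.6% were called higher, 29.9% lower and 11.8% at least 2-fold higher. Calls on both sides, as in the p53 list, are thus common.

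Receptor signalling genes mostly rose, and genes induced early by the receptor divided. Of 25 T cell receptor signalling genes, 16 were higher and 3 lower (median 0.39; 1 lower with exon length offsets). Those that rose included the costimulatory receptor Cd28 (1.26), Malt1 (1.27) and Rasgrp1 (1.17) and the inhibitors Ptpn22 (1.06) and Ubash3b (1.21). Lck, the first kinase of the pathway, stood at 466 ± 23.9 and 489 ± 16.7 CPM and was not called. Of 30 tested receptor-induced early genes of 31 listed, 14 were higher and 8 lower (median 0.12). Among all genes tested, 33.6% were called higher and 29.9% lower (median 0.05), so calls on both sides are not particular to this list. Nr4a1, the orphan receptor whose level tracks receptor signals, stood at 117, 116, 129 and 122 CPM at 48 h and 109.7, 102, 108 and 108 CPM at 72 h (log2 change -0.18, SE 0.07, edgeR adjusted p = 0.033). That call was lost without replicate 3 or 4 of the 48 h group or replicate 2 of the 72 h group (edgeR adjusted p = 0.103, 0.0584 and 0.0882) and with exon length offsets (0.748). Nr4a3 fell from 229 ± 2.04 to 118 ± 3.89 CPM, while Nr4a2 rose from 16.1 ± 1.12 to 36.0 ± 3.08 CPM. Egr1 changed by 0.85 and Egr2 stood at 10.7 ± 1.14 and 9.73 ± 1.33 CPM, which was not called. Fosl2, an AP-1 subunit with the largest rise of the list, went from 41.4 ± 1.12 to 187 ± 38.2 CPM (log2 change 2.18). Among the 8 FOS and JUN factors 4 were higher and 3 lower, with 1 at least 2-fold changed each way. The lowest log2 change among them was -1.81. In the NF-kappa B list, Tnfaip3, the feedback inhibitor A20, stood at 36.7, 41.8, 39.3 and 40.0 CPM at 48 h and 229, 216, 177 and 170.0 CPM at 72 h (log2 change 2.33, SE 0.09, edgeR adjusted p = 4.49e-16), in contrast to Nfkbid, whose fall is given above, and the subunits Nfkb1 and Rel changed in opposite directions (-0.56 and 0.68).

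BATF and IRF factors, which pair on composite AP-1 sites in activated T cells, fell. They made up the 4 called falls among 7 tested genes of that list, whose 3 Ikaros family members rose. Batf3, the gene deleted in the other libraries of the series, stood at 81.2, 74.6, 74.8 and 86.2 CPM at 48 h and 32.6, 31.1, 26.9 and 28.5 CPM at 72 h (log2 change -1.41, SE 0.14, edgeR adjusted p = 3.03e-08). Batf changed by -0.72, Irf4, whose level rises with receptor strength, by -0.84 and Irf8 by -0.59. No 72 h library of these 4 genes reached a 48 h library. Of the Ikaros family, Ikzf2, which encodes Helios, rose from 10.8 ± 0.998 to 42.8 ± 5.42 CPM.

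Cytokine genes changed in both directions, with most changes of at least 2-fold downward. Of 26 tested cytokine and chemokine genes of 33 listed, 13 were lower, 11 of them by at least 2-fold, and 8 were higher, 2 by at least 2-fold (median -0.60, against backgrounds of 5.73% and 11.8% changed 2-fold). Ifng, interferon gamma, stood at 322, 319, 298 and 324 CPM at 48 h and 51.5, 56.1, 77.0 and 105 CPM at 72 h (log2 change -2.13, SE 0.22, edgeR adjusted p = 1.2e-06). Tnf stood at 30.3, 26.6, 26.2 and 29.7 CPM at 48 h and 8.21, 9.50, 13.8 and 13.4 CPM at 72 h (log2 change -1.33, SE 0.15, edgeR adjusted p = 4.73e-08), and Il2 at 11.9, 6.02, 6.21 and 8.72 CPM at 48 h and 0.936, 1.01, 1.31 and 1.65 CPM at 72 h (log2 change -2.75, SE 0.32, edgeR adjusted p = 3.04e-07). These genes stood apart in every library, with replicate 4 of the 72 h group highest for Ifng. The chemokines divided: Ccl3 and Ccl4, which draw other T cells, changed by -1.15 and -1.12, while Ccl5 and Xcl1, which draws cross-presenting dendritic cells, rose to 34.6 ± 3.50 and 64.5 ± 13.8 CPM (log2 changes 1.55 and 1.35). Tnfsf10, the death ligand TRAIL, and Ltb, lymphotoxin beta, changed by 0.96 and 0.86. Csf1, Areg and 5 chemokines were too low to be tested. Of 6 tested type 2 genes of 10 listed, 4 were lower, among them Il4 (-1.44) and Il1rl1, the receptor for interleukin 33 (-2.09).

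Among 32 cytokine receptor and signalling genes, 20 were higher and 4 lower. Il7r, the receptor for interleukin 7, stood at 38.9, 47.6, 47.6 and 45.6 CPM at 48 h and 159, 164, 155 and 178 CPM at 72 h (log2 change 1.87, SE 0.09, edgeR adjusted p = 3.44e-15). Il2ra, the high-affinity chain for interleukin 2, stood at 1224, 1194, 1212 and 1215 CPM at 48 h and 863, 853, 799.7 and 779 CPM at 72 h (log2 change -0.56, SE 0.06, edgeR adjusted p = 3.12e-08), and Il2rb, which also binds interleukin 15, at 1032 ± 50.2 and 1028 ± 69.5 CPM, a difference that was not called. Ifngr1 and Tgfbr2 changed by 1.31 and 1.32, and Stat3 by 1.07. The feedback genes Socs1, Socs2 and Cish, which cytokine signals induce, changed by -1.10, -1.32 and -0.65. Genes that interferon gamma induces divided: of 16 tested of 17 listed, 8 were lower and 7 higher. Gbp2 changed by -0.86 and its relative Gbp8 by 2.18. Among all genes tested, 33.6% were called higher and 29.9% lower, which is the background for the next list too. Of 24 tested type I interferon genes of 26 listed, 11 were higher and 5 lower; Dhx58, an RNA sensor of the RIG-I family, rose from 3.49 ± 0.796 to 24.2 ± 1.18 CPM and Irf7 from 2.13 ± 0.498 to 6.66 ± 0.813 CPM, while Isg15 and Usp18 changed by -0.80 and -0.94.

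Most cytotoxic granule genes rose, but the granzyme of highest level fell. Of 30 tested granule genes of 31 listed, 20 were higher, 12 by at least 2-fold, and 7 lower (median 0.86). Of 10 tested granzyme and perforin genes, 8 were higher, 7 by at least 2-fold, and 1 was lower (median 1.67). The one that fell was Gzmb, at 6228, 6123, 6214 and 6177 CPM at 48 h and 5229, 5406, 4639 and 4994 CPM at 72 h (log2 change -0.29, SE 0.06, edgeR adjusted p = 0.000407). Per length it went from 4307 ± 32.6 to 3528 ± 231 RPKM, against 29.1 ± 2.27 and 94.9 ± 4.48 RPKM for Gzmc, the next of the family, and was among the 10 genes of highest RPKM at both times. Gzma stood at 20.8, 22.5, 23.4 and 24.4 CPM at 48 h and 64.2, 73.7, 61.8 and 82.8 CPM at 72 h (log2 change 1.63, SE 0.10, edgeR adjusted p = 5.53e-13), and Prf1, the pore-forming perforin, at 38.1, 37.9, 42.3 and 42.2 CPM at 48 h and 74.6, 72.3, 85.1 and 81.4 CPM at 72 h (log2 change 0.96, SE 0.10, edgeR adjusted p = 6.8e-09). Gzmd, Gzme, Gzmf and Gzmg, a cluster of similar genes between which reads may be shared, had log2 changes of 2.66, 1.76, 2.03 and 2.93 and stood at or below 22.6 ± 3.998 CPM at 72 h. Nkg7 and Ctsw, granule proteins, changed by 1.04 and 1.45, and the granzyme inhibitor Serpinb6b by 1.58, while Serpinb9, the inhibitor of granzyme B, changed by -0.44 and its groups overlapped. Of 13 killer cell receptors, 11 were higher, 7 by at least 2-fold (median 1.06). Klrk1, which encodes NKG2D, stood at 45.1, 59.7, 59.9 and 49.2 CPM at 48 h and 188, 208, 204 and 268 CPM at 72 h (log2 change 2.02, SE 0.17, edgeR adjusted p = 2.01e-08), and Klrd1, which encodes CD94, at 13.2, 16.5, 15.9 and 14.2 CPM at 48 h and 51.7, 63.9, 63.4 and 93.9 CPM at 72 h (log2 change 2.19, SE 0.16, edgeR adjusted p = 6.81e-10).

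Most inhibitory receptors rose as well. Of 17, 13 were higher, 10 by at least 2-fold, and 2 were lower (median 1.07). Lag3, which binds MHC class II, stood at 92.0, 85.2, 97.7 and 101 CPM at 48 h and 329, 315, 308 and 281 CPM at 72 h (log2 change 1.71, SE 0.09, edgeR adjusted p = 1.1e-13). Havcr2, which encodes TIM-3, stood at 3.15, 4.05, 4.04 and 4.58 CPM at 48 h and 18.01, 18.4, 18.4 and 21.5 CPM at 72 h (log2 change 2.27, SE 0.11, edgeR adjusted p = 8.47e-15), and Entpd1, the ectonucleotidase CD39, at 5.30, 6.91, 7.63 and 7.11 CPM at 48 h and 21.8, 24.6, 21.4 and 21.9 CPM at 72 h (log2 change 1.73, SE 0.10, edgeR adjusted p = 1.32e-13). Pdcd1, which encodes PD-1, and Tigit changed by 0.89 and 0.86. Ctla4 stood at 1035 ± 90.5 and 1180 ± 211 CPM and was not called, but was called without replicate 3 of the 72 h group (log2 change 0.30, edgeR adjusted p = 0.0085). Cd200 and Btla were lower (-0.50 and -0.36). Tox, a factor linked to exhaustion, stood at 8.89 ± 0.558 and 10.9 ± 2.51 CPM, which was not called, but was without replicate 3 or 4 of the 72 h group (edgeR adjusted p = 0.0399 and 0.0164). Of 17 tested costimulatory receptors of 18 listed, 10 were higher and 5 lower: Tnfrsf9, which encodes 4-1BB, went from 486 ± 34.6 to 1180 ± 95.8 CPM and Slamf7 from 43.0 ± 0.838 to 143 ± 10.5 CPM, while the early activation marker Cd69 changed by -0.54 and Cd44 at 93.3 ± 4.58 and 97.7 ± 2.29 CPM was not called.

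Homing and adhesion genes mostly rose. Of 32 tested of 36 listed, 23 were higher, 14 by at least 2-fold, and 3 were lower (median 0.84; 1 lower with exon length offsets and 5 with no filter on low counts). Cxcr4, the receptor for a bone marrow chemokine, stood at 6.36, 8.79, 9.65 and 8.64 CPM at 48 h and 70.5, 69.6, 55.9 and 54.3 CPM at 72 h (log2 change 2.90, SE 0.14, edgeR adjusted p = 1.16e-13). Ccr7, which guides cells to lymph nodes, stood at 212, 218, 242 and 229.6 CPM at 48 h and 539, 516, 443 and 394 CPM at 72 h (log2 change 1.07, SE 0.08, edgeR adjusted p = 5.33e-11), and S1pr1, which lets them leave, at 6.98 ± 0.406 and 18.1 ± 2.65 CPM. A receptor for inflamed tissue rose as well, with Cxcr6 at 26.0 ± 3.56 CPM at 72 h, and the integrin Itgb3 rose from 46.4 ± 2.32 to 185 ± 35.1 CPM. St3gal1, a sialyltransferase that caps O-glycans, changed by 1.72. Of 19 galectin, annexin and S100 genes, 17 were higher, 10 by at least 2-fold (median 1.04). The member called lower, Anxa7 (-0.15), lost its call without replicate 2 of the 48 h group or replicate 1 or 3 of the 72 h group. Lgals3, galectin 3, stood at 28.7, 22.4, 22.2 and 23.2 CPM at 48 h and 180.0, 172, 150.4 and 167 CPM at 72 h (log2 change 2.79, SE 0.08, edgeR adjusted p = 6.21e-19), and Anxa2, annexin 2, at 100.0, 121, 122 and 112 CPM at 48 h and 585, 607, 549 and 579.5 CPM at 72 h (log2 change 2.35, SE 0.07, edgeR adjusted p = 6.21e-19).

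Regulators of effector and memory fate changed in both directions. Of 32 tested of 33 listed, 16 were higher and 6 lower, where 33.6% of all genes tested were called higher and 29.9% lower. Tbx21, the factor T-bet, stood at 82.9, 81.8, 79.8 and 84.0 CPM at 48 h and 45.2, 44.9, 48.5 and 41.6 CPM at 72 h (log2 change -0.87, SE 0.08, edgeR adjusted p = 4.11e-10), while its relative Eomes stayed at the level given above. Prdm1, which encodes BLIMP-1, stood at 6.84, 8.58, 7.24 and 6.44 CPM at 48 h and 29.7, 29.4, 28.4 and 21.9 CPM at 72 h (log2 change 1.91, SE 0.11, edgeR adjusted p = 2.47e-13), and Id2 and Bhlhe40 changed by 1.27 and 1.40. Of the factors of naive and stem-like cells, Tcf7 at 169.5 ± 5.06 and 150.4 ± 24.9 CPM was called only without replicate 1 of the 72 h group (log2 change -0.25, edgeR adjusted p = 0.0234) or with no filter on low counts (-0.21, 0.011). Lef1 at 76.6 ± 4.95 and 83.1 ± 7.10 CPM was called only without replicate 4 of that group (0.17, 0.043). Foxo1, Bach2 and Myb changed by 0.85, 0.74 and 1.16. Bcl6 and Zbtb20 rose from 0.412 ± 0.125 to 1.86 ± 0.624 CPM and from 0.889 ± 0.265 to 4.82 ± 0.842 CPM.

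Survival and death genes changed on both sides. Bcl2 stood at 158, 184, 176 and 166 CPM at 48 h and 297, 291, 273 and 266 CPM at 72 h (log2 change 0.72, SE 0.07, edgeR adjusted p = 6.92e-10) and Bcl2l1, which encodes BCL-XL, at 186, 172, 180.4 and 184 CPM at 48 h and 98.9, 89.8, 112 and 104 CPM at 72 h (log2 change -0.84, SE 0.06, edgeR adjusted p = 3.92e-11), with no overlap in either. Per length, Bcl2 went from 18.7 ± 1.27 to 30.8 ± 1.62 RPKM and Bcl2l1 from 39.4 ± 1.31 to 22.1 ± 2.04 RPKM, so that the order of these pro-survival genes reversed. Mcl1 changed by 0.24. Of the pro-apoptotic members, Bcl2l11, which encodes BIM, stood at 23.8, 26.7, 20.3 and 21.9 CPM at 48 h and 73.5, 67.5, 61.8 and 49.3 CPM at 72 h (log2 change 1.45, SE 0.10, edgeR adjusted p = 6.48e-12), Bmf changed by 1.85, and Bid and Bax changed by -1.01 and -0.48. Of 22 death receptor and caspase genes, 12 were higher and 5 lower, within log2 changes of -0.90 and 1.00. Over all genes tested, 33.6% were called higher and 29.9% lower, so calls on both sides are common to most lists.

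Lists of lysosome, zinc and chromatin genes each held 3 members at least 2-fold higher, where 11.8% of all genes tested were. For the lysosome list this was close to the share of all genes. Calls over all genes tested were 33.6% higher and 29.9% lower. Of 24 lysosome and autophagy genes, 15 were higher and 2 lower (median 0.28), with Wipi1, an autophagy protein, rising from 1.02 ± 0.359 to 5.68 ± 0.710 CPM. Of 8 metallothionein and zinc genes, 3 were higher and 4 lower. The metal-binding Mt1 stood at 30.4, 34.1, 38.5 and 34.2 CPM at 48 h and 125, 115, 116 and 98.3 CPM at 72 h (log2 change 1.72, SE 0.12, edgeR adjusted p = 1.85e-10), and the zinc importers Slc39a10 and Slc39a6 changed by -0.92 and -0.91. Of 19 genes of MHC class I presentation, 10 were higher and 5 lower, with B2m, the shared light chain, at 0.53 and Psmb10, an immunoproteasome subunit, at -0.51. Of 16 epigenetic regulators, 6 were higher and 6 lower. Tet1, which oxidises methylated cytosine, rose from 2.83 ± 0.612 to 10.1 ± 1.196 CPM, and the paired methyltransferases Ezh1 and Ezh2 of the Polycomb complex changed in opposite directions (1.28 and -0.46).

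The course in wild-type cells was set beside that of the Batf3-/- libraries, cultured alike at the same times. The comparisons share no library. Of the 1788 genes called at least 2-fold higher in wild-type cells, 1422 met the same rule in the knockout, 79.5% of the wild-type set and 72.6% of the knockout's 1958 (12.9% of genes tested). Of the 871 that were lower, 744 did, 85.4% of the wild-type set and 54.3% of the knockout's 1370 (9.01%). The difference of the changes itself was called in 853 genes (5.61% of those tested), with 537 (3.53%) more positive and 316 (2.08%) more negative in wild type. Among the 1788 rises it was called in 85, 45 larger in wild type and 40 in the knockout, and among the 871 falls in 85, 3 larger in wild type and 82 in the knockout. Kit rose by 5.79 in wild-type and 4.54 in knockout cells (difference 1.25, edgeR adjusted p = 0.0143), and Mt2, a metallothionein, by 2.68 and 4.30 (difference -1.62, edgeR adjusted p = 0.000357). Orc1, the S phase gene with the largest fall, changed by -1.30 and -1.94 (difference 0.64, edgeR adjusted p = 0.00052), and 15 of the 38 S phase genes had a called difference. Scaling by library size alone changed these counts to 1231 more positive and 183 more negative in wild type. Without replicate 1 or 4 of the wild-type 48 h group or replicate 3 of the 72 h group they were 325 and 193, 311 and 177, and 288 and 158.

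**Figure D5:**
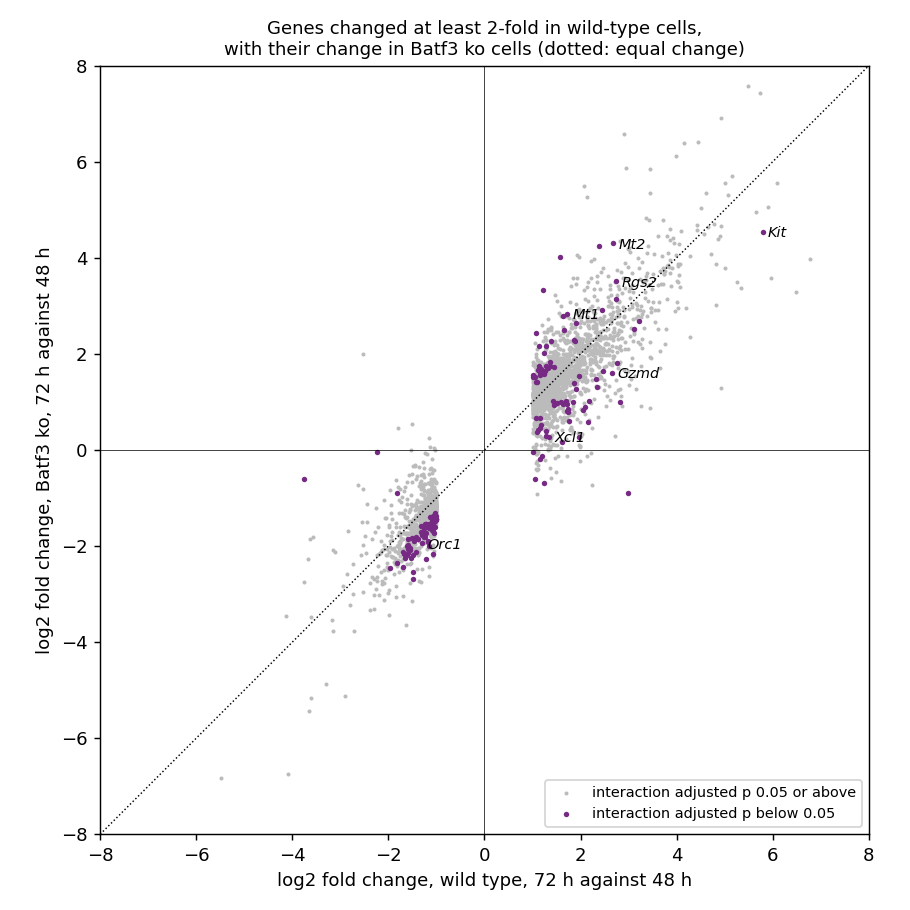
Log2 fold change, 72 h against 48 h, in wild-type cells (x axis) and in Batf3-/- cells (y axis) of the genes called and at least 2-fold changed in wild type (1788 higher, 871 lower); purple marks a called difference between the courses (85 and 85 genes) and the dotted line equal change. Purple points on the falling side lie below the line, where the knockout fell further, in 82 of 85 genes.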

How the data were processed

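The authors deposited raw read counts per gene for 16 RNA-seq libraries, unpooled. Per the labels' protocols, 100 ng of total RNA was selected with oligo-dT and made into TruSeq Stranded mRNA libraries, and the submitters' processing notes name bcl2fastq 2.2.0, STAR 2.7, featureCounts and GRCm38. The annotation release, strand setting and handling of multi-mapping reads were not given in the sources used here. Counts of near-identical, overlapping and antisense genes are therefore uncertain. Of 55335 gene identifiers, 55154 were found in GENCODE M21, which gave exon lengths for RPKM.

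The deposited counts were fitted as they stand in R 4.3.3 with edgeR 4.0.16 (TMM, genes kept by filterByExpr at 10 counts, robust quasi-likelihood fit over 4 groups of 4 libraries) and adjusted by Benjamini and Hochberg over 15197 genes, with a threshold of 0.05. The difference of the courses was tested as an interaction. All p-values are from tests on both sides. Totals of 29375818 to 39241169 counts set the precision. Alternatives were DESeq2 1.42.0, limma-voom (limma 3.58.1), other scalings, filters and sample sets, a replicate block, exon length offsets and each wild-type library left out. The text names the 15 largest rises and falls among genes whose average log2 CPM over all 16 libraries, knockout included, was 3 or more. Their wild-type libraries did not overlap between times. Also named are up to 6 members of each list with the largest called changes and a list of well-known T cell genes. The 10 genes of highest RPKM and members that explain a count were added. Some genes that met these rules are not reported here. Clone-named models and receptor segments were left out of the largest changes. The lists and the choice of this comparison were made with earlier results of these data known. Promoter windows and their GRCm38.p6 coordinates are from RefSeq.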

Additional observations from a re-analysis of the deposited data

Results flagged for a closer look

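For 48 of the 267 genes named in the text, the change between the times differed between wild-type and Batf3-/- cells by edgeR's test of that difference (adjusted p between 3.58e-06 and 0.0474). The same test called 853 of all 15197 genes tested (5.61%). Most named genes were picked for large called changes in wild type, so their share cannot be compared directly with that of all genes. Values below are the wild-type log2 change minus the knockout's. Among receptor-induced and transcription factor genes the differences were Nr4a1 0.67, Nr4a2 1.35, Nr4a3 0.81, Rel 0.37, Eomes 0.47, Prdm1 0.64 and Epas1 1.16. Granzymes and other effector and surface genes had Gzma 0.67, Gzmc 0.68, Gzmd 1.05, Gzme 1.17, Xcl1 1.07, Il7r 0.48, Kit 1.25 and St3gal1 0.77 above 0, and Cxcr6 -0.85, Tigit -0.38 and Gbp2 -0.80 below it. Cell cycle and replication genes had Ccne2 0.52, Cdc25a 0.38, Cdc20 0.32, Plk1 0.44, Orc1 0.64, Rrm2 0.58 and Dck 0.45, with Cenpa at -0.32. Genes of growth and biosynthesis had Gart 0.53, Shmt1 0.48, Shmt2 0.46, Slc7a5 0.37, Wars 0.36, Eif4g1 0.38, Nop56 0.26, Polr1b 0.59 and Ubtf 0.38, with Npm1 at -0.46. Metabolic, stress and survival genes had Hmgcs1 0.40, Cpt1a 0.47, Sesn2 0.57, Bmf 0.85, Btg2 0.41 and Nefh 0.51 above 0, and Aldoa -0.42, Gyg -0.30, Dnajb1 -0.63, Pik3ip1 -0.47, Mt1 -1.11 and Mt2 -1.62 below it. Negative differences mean a smaller rise or a larger fall in wild type; the metallothioneins Mt1 and Mt2, for example, rose in wild type by 1.72 and 2.68 and in the knockout by 2.84 and 4.30.

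In 25 of 534 groups of 4 libraries, 1 library lay so far from the others that Dixon's ratio of its gap to the range was above its critical value; chance flags about 1 in 20 groups, and the share here was 4.68%. At 48 h the highest library stood apart for Aen at 95.8 CPM in replicate 1 (next 92.5), Bend3 at 24.6 CPM in replicate 2 (next 21.5), Cd4 at 0.226 CPM in replicate 4 (next 0.0795) and Cd40lg at 0.983 CPM in replicate 2 (next 0.676). The same held at the highest end at 48 h for Cenpa at 158 CPM in replicate 4 (next 148), Cycs at 483 CPM in replicate 2 (next 466), Fdft1 at 59.9 CPM in replicate 2 (next 58.1) and Lgals3 at 28.7 CPM in replicate 1 (next 23.2). Further highest libraries of 48 h were those of Mxd1 at 15.5 CPM in replicate 2 (next 13.2), Tcf7 at 177 CPM in replicate 1 (next 168) and Ubash3b at 15.9 CPM in replicate 1 (next 13.8). At 48 h the lowest library stood apart for Btla at 42.2 CPM in replicate 3 (next 49.6), Ccne1 at 132 CPM in replicate 4 (next 139), Foxo1 at 47.6 CPM in replicate 4 (next 49.9) and Gzmg at 0.0795 CPM in replicate 1 (next 0.276). The same held at the lowest end at 48 h for Ighm at 236 CPM in replicate 4 (next 244). At 72 h the highest library stood apart for Bax at 109.5 CPM in replicate 4 (next 96.0), Ccne1 at 57.7 CPM in replicate 3 (next 46.7), Cd8a at 340.5 CPM in replicate 3 (next 330.2) and Entpd1 at 24.6 CPM in replicate 2 (next 21.9). The same held at the highest end at 72 h for Havcr2 at 21.5 CPM in replicate 4 (next 18.4) and Socs1 at 34.1 CPM in replicate 3 (next 26.9). At 72 h the lowest library stood apart for Polr1b at 21.04 CPM in replicate 1 (next 23.03), Rbm19 at 9.77 CPM in replicate 2 (next 11.6) and Tigit at 86.6 CPM in replicate 4 (next 96.7). No library held more than 5 of these flags.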

How the results depend on the processing

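The numbers of genes called higher and lower between the times stayed within 1.5 times of 5113 and 4551 under every alternative run. With exon length offsets they were 5647 and 4138. Changes of at least 2-fold moved further only where fewer genes were tested (951 higher and 540 lower among genes averaging log2 CPM 1 or more) or where a 1.5-fold change was tested instead (1364 lower). The genotype difference moved more: library size alone gave 1231 genes more positive and 183 more negative in wild type, DESeq2 gave 566 more negative, and leaving out single wild-type libraries gave 288 to 649 more positive and 158 to 407 more negative. The cause was not tested. Over single libraries left out, the calls were 4821 to 5020 higher and 4375 to 4554 lower, and those of at least 2-fold 1739 to 1813 and 827 to 911. With the replicate number as a block they were 5060 and 4512, of at least 2-fold 1769 and 872, and for the genotype difference 429 and 280. Same-numbered libraries of the times had correlations of their deviations of 0.266, 0.019, 0.272 and 0.015. Differently numbered libraries had -0.249 to 0.188. The numbers were not taken as pairs because the sources used here do not say that a number marks a shared culture. Without the libraries that stood apart from their groups, replicate 4 of wild type at 72 h and replicate 4 of Batf3-/- at 48 h, an alternative chosen after seeing the data, 689 and 455 genes differed between genotypes.

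Of 4798 combinations of a named gene and an alternative, 28 lost and 18 gained a call, in 16 genes, and no called change reversed. Exon length offsets, under which the median change of all genes was 0.11 in place of 0.05, added calls for Cd8b1, Ctla4, Dnajb1, Ighm, Lck, Tox and mt-Co1. Hk2 was called with no filter on low counts or with wild-type libraries alone. Of 3276 list counts under the alternatives, 106 moved by over 1.5 times. A single library's 3 counts equal 0.0765 to 0.102 CPM, which limits what can be said of genes near 0 at 48 h.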

Other observations

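The genes below were chosen after their values were seen, and all but Cd74 and Ciita lie outside the lists. Of genes that act on glycogen, the storage form of glucose, 4 picked in this way are given beside Pygl, which is described above; they stand for no list, and 33.6% of all genes tested were called higher. Gbe1, the branching enzyme, stood at 12.96, 16.1, 13.6 and 12.6 CPM at 48 h and 86.9, 91.3, 87.4 and 81.9 CPM at 72 h (log2 change 2.65, SE 0.09, edgeR adjusted p = 2.06e-17). Ppp1r3b, which targets a phosphatase to glycogen, rose from 18.5 ± 1.76 to 94.5 ± 7.78 CPM, Gys1, glycogen synthase, from 23.3 ± 1.54 to 42.6 ± 2.11 CPM, and Gyg, the primer protein, from 52.3 ± 2.04 to 91.5 ± 2.78 CPM. All 4 were called by edgeR's quasi-likelihood test, with log2 changes of 2.65, 2.35, 0.87 and 0.81.

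Among genes of MHC class II, H2-Ab1 had a larger change than its companions below. H2-Ab1, which encodes a beta chain, stood at 9.22, 9.12, 11.8 and 10.8 CPM at 48 h and 77.4, 77.6, 66.0 and 63.3 CPM at 72 h (log2 change 2.80, SE 0.10, edgeR adjusted p = 1.22e-16), with every 72 h library above every 48 h library. H2-Aa, the matching alpha chain, stood at 0.418 ± 0.101 and 0.356 ± 0.0792 CPM, and Cd74, the invariant chain, at 8.58 ± 0.531 and 6.53 ± 1.36 CPM. Ciita, the regulator of this gene class, was too low to be tested.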
